A study of Equus caballus with 20 samples.

Results

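The muscle myosins are the heavy and light chains that build the thick filament motor of the sarcomere. Of 10 genes listed for this family (Myh1, Myh2, Myh3, Myh4, Myh7, Myh8, Myl1, Myl2, Myl3 and Mylpf), 8 had a probe whose gene symbol matched, ignoring case, and these 8 genes were read by 9 of the 24493 probes, or 8 of the 12018 symbols on the array. Myh8 had 2 probes, named M12289_34 and NM_177369_2199, and every other member had 1. Myh2 and Mylpf were not analysed here. The members were sorted by isoform into fast (Myh4, Myh1, Myl1), slow (Myh7, Myl2, Myl3) and developmental (Myh3, Myh8).

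A muscle myosin molecule joins a pair of heavy chains, which hold the ATPase and the actin-binding head, with essential and regulatory light chains that stiffen and tune the lever arm. Fibres differ in the heavy chain they make. Slow, oxidative type I fibres use Myh7, fast fibres use Myh2, Myh1 or Myh4, and Myh3 and Myh8 belong to embryonic and newborn muscle and return in regenerating fibres. Light chains follow the same division, with Myl1 and Mylpf in fast fibres and Myl3 and Myl2 in slow fibres and the heart. These roles are best known from mouse and rat.

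The affected animals were 5 French Trotters with RER, or recurrent exertional rhabdomyolysis, in which fibres break down and muscles stiffen after exercise, and they had raised muscle enzyme activities in plasma. They were set against 10 sound French Trotters, whose RNA was pooled for each muscle. Biopsies came from a hindquarter muscle, the gluteus medius, and a back muscle, the longissimus lumborum. RNA of each RER biopsy was hybridised to 2 dye-swapped arrays together with the pool of its own muscle, 20 arrays in all. Ages are not given in the sources used here, and the pool is 1 sample per muscle, so that no spread among sound horses enters any test.

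Every value below is a log2 ratio of RER muscle over the control pool, averaged over the 2 arrays of a horse and muscle, so that 0 means equal signal. Which channel is on top is not stated in the labels, and RER over pool is only the likely reading. In gluteus the arrays of horses 2 and 4 with RER RNA in Cy3, the green dye, hold the same pool and dye orientation. Over all shared probes they correlated at -0.341, the lowest of the same-dye comparisons within a muscle. Most of these lay above 0, up to 0.497. Since some horses opposed each other, agreement between horses does not settle the direction. If all arrays were turned together, every value would keep its size, below 0 would become above 0, and the counts above and below 0 would change places. A turn of single arrays changes sizes as well. Values with the Cy3 array turned in 4 pairs whose arrays ran against each other (the opposed pairs) are given below for many results, not for all. The Cy3 minus Cy5 pattern of the other pairs matched the labelled dye in sign in 20 of 20 arrays, those of the opposed pairs included. A turn of all arrays together leaves this match unchanged, whereas an array turned alone would carry the pattern with the opposite sign. Such ratios carry no absolute level, so the tissue could not be checked by its markers and isoforms could not be ranked by abundance. The number of horses limits the precision of every value.

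The arrays held 8966 to 24050 measured ratios, and 10 dense arrays (gluteus horses 1, 2 and 3, longissimus horses 1 and 2) held at least 22032 while the 10 sparse ones held at most 17708. The 2 dye-swapped arrays of a horse correlated below 0 over all probes in 4 pairs, at -0.206 and -0.268 in gluteus horses 2 and 3 and at -0.269 and -0.322 in longissimus horses 1 and 2. The other 6 pairs correlated between 0.302 and 0.849. Dense and sparse arrays therefore part horses within a muscle, and values within each kind are given for several members below. Myosin heavy chains are near-identical paralogs, so signal from one member on the probe of another cannot be told apart from its own, and how well these probes match horse RNA was not tested.

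The slow isoforms Myh7, Myl2 and Myl3 and the developmental isoform Myh8 had values in at least 4 of 5 horses in each muscle and were tested. None of the fast isoforms met that filter. No member passed an adjusted p of 0.05 in limma with Benjamini-Hochberg adjustment over all 10224 features, in gluteus, in longissimus or in the difference between them, nor in the mean of both muscles (10112 features). The same held for all features, as 0% were called in each of the 4 comparisons. At an unadjusted p under 0.05 the whole array gave 191 features in gluteus (1.87%), 433 in longissimus (4.24%), 184 for the difference (1.8%) and 197 for the mean (1.95%). Of the 4 tested members 1, Myl3, was among them, in longissimus and in the mean.

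**Figure D1:**
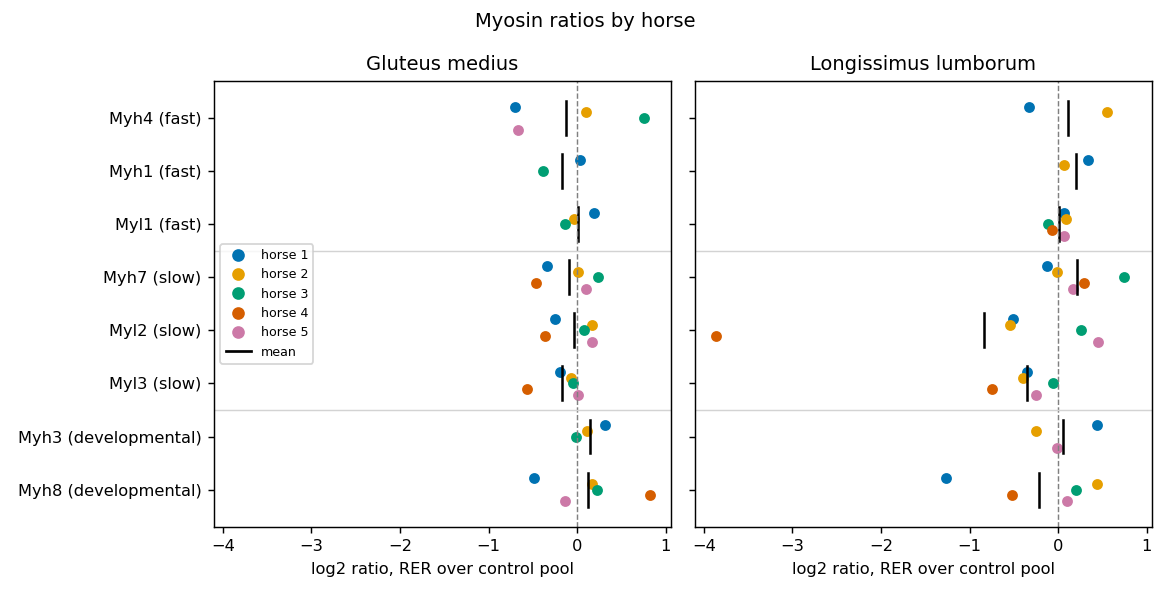
Log2 ratios of RER muscle over the control pool (x axis) for the 8 myosin genes (y axis, grouped as fast, slow and developmental), with gluteus medius on the left and longissimus lumborum on the right. Each point is 1 horse (mean of its 2 arrays, and of both probes for Myh8) and the black bar is the mean of the horses with a value. For Myh8 in longissimus horse 4 only probe M12289_34 had a value. Myl3 lies below 0 in all 5 horses in longissimus, and Myl2 of horse 4 lies far from the others at -3.86.

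Myl3, the essential light chain of slow fibres and of the ventricle, was below the control pool in every horse in longissimus and in 4 of 5 in gluteus, without passing the adjusted threshold. In gluteus its log2 ratio was -0.20, -0.07, -0.05, -0.57 and 0.00 in RER horses 1 to 5, lowest in horse 4. It lay below 0 in 4 of 5 horses, and no tested member was below 0 in all 5 in gluteus, where 242 of 7761 features (3.12%) were. The mean of -0.18 ± 0.11 (SE, n = 5) had an adjusted p of 1 in limma. It was -0.08 without horse 4 and -0.06 with the Cy3 array turned in the opposed pairs. The 2 gluteus arrays of a horse differed in sign in 3 of 5 pairs, and in horse 3 the Cy3 array read -0.39 and the Cy5 array 0.30.

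In longissimus Myl3 was -0.35, -0.39, -0.05, -0.74 and -0.25 in horses 1 to 5. All 5 horses lay below the pool, with horse 3 close to 0 and horse 4 again the lowest. The mean was -0.36 ± 0.11 (SE, n = 5, 95% interval -0.60 to -0.12), with an unadjusted p of 0.00717 and an adjusted p of 0.825 in limma. Of the 7528 features with values in all 5 horses, 190 (2.52%) were below 0 in every one.

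The sign of Myl3 in longissimus did not turn with the dye. With RER RNA in Cy3 the 5 ratios were -0.24, -0.26, -0.02, -0.65 and -0.23, and with RER RNA in Cy5 they were -0.46, -0.53, -0.09, -0.84 and -0.27. All 10 arrays were thus below 0, as were those of 16 of the 7927 probes measured on all 10 longissimus arrays (0.202%). This includes the pairs of horses 1 and 2, whose 2 arrays ran against each other over the whole array. The mean was -0.37 on dense arrays (2 horses) and -0.35 on sparse arrays (3 horses). Without horse 4 it was -0.26, and with the Cy3 array turned in the opposed pairs it was also -0.26. With that turn the Cy3 arrays of horses 1 and 2 would lie above 0.

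Gluteus minus longissimus was 0.18 ± 0.15 for Myl3 (SE, 95% interval -0.16 to 0.52, adjusted p = 0.9997), so a difference between the muscles was not shown and an equal ratio was not shown either. Over both muscles the mean of the 5 horses was -0.27 ± 0.10 (SE, unadjusted p = 0.0278, adjusted p = 0.999). It was -0.17 without horse 4 and -0.16 with the Cy3 array turned in the opposed pairs.

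Myl2, the regulatory light chain of slow fibres and of the ventricle, had a longissimus mean that rested on 1 horse. In gluteus it was -0.25, 0.17, 0.08, -0.36 and 0.17 in horses 1 to 5, with horses 1 and 4 below 0 and the other 3 above. The mean was -0.04 ± 0.48 (SE, n = 5, adjusted p = 1). This SE is pooled over both muscles and so carries the spread of longissimus horse 4. Without horse 1 the gluteus mean was 0.01 and without horse 4 it was 0.04. With the Cy3 array turned in the opposed pairs the gluteus mean was -0.15.

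In longissimus Myl2 was -0.51, -0.55, 0.26, -3.86 and 0.45. Horses 3 and 5 lay above 0, horses 1 and 2 below, and horse 4 stood apart on both of its arrays, at -4.09 in Cy3 and -3.64 in Cy5. The mean of -0.84 ± 0.48 (SE, n = 5) had an adjusted p of 0.825, and without horse 4 the mean was -0.09. The signs agreed between dyes in all 5 longissimus pairs. The difference, gluteus minus longissimus, was 0.80 ± 0.69 (SE, 95% interval -0.71 to 2.31, adjusted p = 0.9997), with 0.13 without horse 4 and 0.55 with the opposed pairs turned.

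Myh7, the slow heavy chain of type I fibres, had horses on both sides of the pool in both muscles. In gluteus it was -0.35, 0.01, 0.23, -0.46 and 0.10 in horses 1 to 5, lowest in horses 1 and 4. The gluteus mean was -0.09 ± 0.13 (SE, n = 5, adjusted p = 1), and it was -0.0307 without horse 1, -0.0014 without horse 4 and -0.18 without horse 3.

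In longissimus Myh7 was -0.12, -0.01, 0.74, 0.29 and 0.17, above 0 in 3 horses and close to 0 in horse 2. The mean was 0.21 ± 0.13 (SE, n = 5, adjusted p = 0.825), but it was -0.07 on the dense arrays of horses 1 and 2 and 0.40 on the sparse arrays of the other 3. Without horse 3 it was 0.08, and with the Cy3 array turned in the opposed pairs it was 0.02. The dye moved this probe, which averaged 0.66 on the Cy3 arrays and -0.23 on the Cy5 arrays and changed sign in 4 of 5 pairs. Gluteus minus longissimus was -0.31 ± 0.19 (SE, 95% interval -0.72 to 0.11, adjusted p = 0.9997), with 0.03 on dense arrays alone, -0.08 with the opposed pairs turned and -0.20 without horse 4. The mean of both muscles was 0.06 ± 0.11 (SE, adjusted p = 0.999), and -0.05 without horse 3.

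All 3 slow isoforms had a mean below 0 in gluteus and 2 of 3 in longissimus, where 53.9% and 51.1% of all features did so. The slow isoforms had a median of -0.09 in gluteus and -0.36 in longissimus, and of -0.09 in longissimus without horse 4. All features had medians of -0.0096 and -0.0036 in gluteus and longissimus. These counts are too small to set the slow isoforms apart from other genes.

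Myl1, the essential light chain of fast fibres and the counterpart of Myl3, had means near 0 over the horses with both arrays. In gluteus it had values in 3 horses only, 0.20, -0.04 and -0.13 in horses 1 to 3. Horses 4 and 5 had a value on the Cy3 array alone, 0.49 and 0.20. With single-array values allowed the gluteus mean was 0.14 ± 0.09 (SE, n = 5, unadjusted p = 0.143 in limma). In longissimus Myl1 was 0.07, 0.09, -0.12, -0.07 and 0.06 in horses 1 to 5, a narrow range with both signs. When features with at least 3 of 5 horses were admitted, its mean was 0.01 ± 0.10 in gluteus (SE, n = 3, adjusted p = 1) and 0.01 ± 0.07 in longissimus (SE, n = 5, adjusted p = 0.995). The longissimus means came from arrays of opposite sign, averaging 0.36 in Cy3 and -0.34 in Cy5, with opposite signs in 5 of 5 pairs. Turning the Cy3 array of horses 1 and 2, whose pairs correlated below 0, gave -0.23. The longissimus mean was 0.08 on dense and -0.04 on sparse arrays.

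Myh4, the fastest heavy chain, of type IIb fibres in mouse, varied most among the fast isoforms. In gluteus it was -0.70, 0.09, 0.75 and -0.66 in horses 1, 2, 3 and 5, so that horses lay on both sides of the pool. The arrays behind these means opposed each other, at 2.37 in Cy3 and -2.18 in Cy5 for horse 2 and at -0.28 and 1.79 for horse 3. In longissimus only horses 1 and 2 had values, -0.33 and 0.55, and both pairs again differed in sign between dyes. Myh1, the heavy chain of type IIx fibres, was 0.04 and -0.38 in gluteus horses 1 and 3 and 0.34 and 0.06 in longissimus horses 1 and 2. The longissimus means were 0.11 for Myh4 and 0.20 for Myh1, and -0.90 and -0.45 with the Cy3 array turned in the opposed pairs. In gluteus the Myh4 mean was -0.13, with 0.05 on dense arrays, 0.06 without horse 1 and -0.66 on sparse arrays (horse 5 alone). The gluteus mean of Myh1 was -0.17, and 0.11 with the pairs turned. No direction can be read for either heavy chain from these values.

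**Figure D2:**
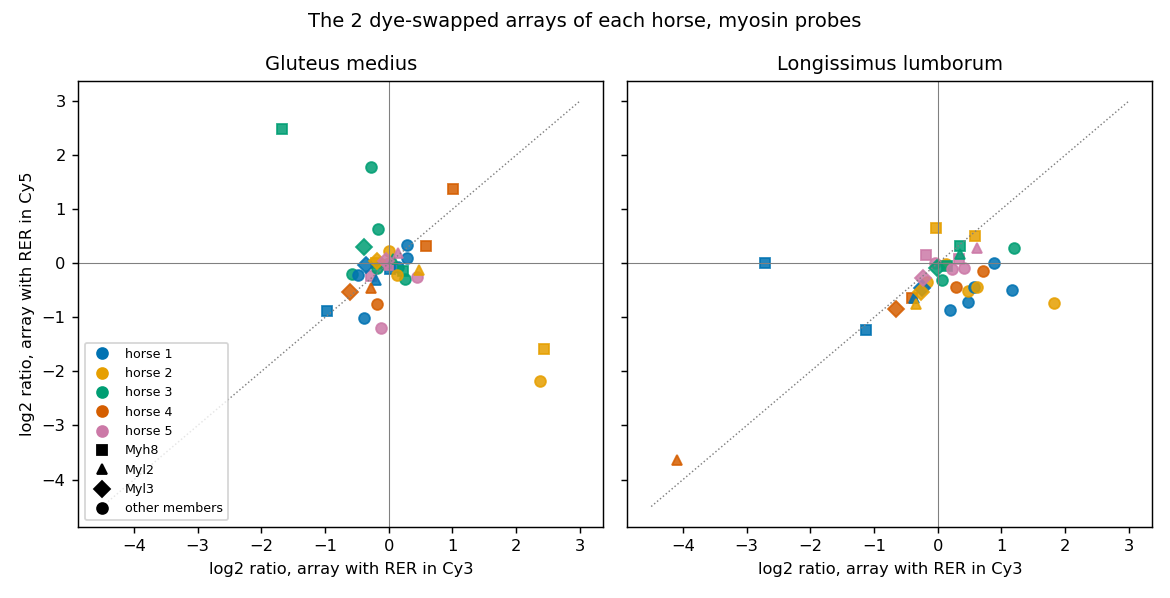
The 2 dye-swapped arrays of each horse for every myosin probe, as log2 ratio of RER over the control pool with RER in Cy3 (x axis) and in Cy5 (y axis), gluteus medius on the left and longissimus lumborum on the right. Each point is 1 probe in 1 horse, colours mark horses, shapes mark Myh8, Myl2, Myl3 and the other members, and the dotted line marks equal values. Myl3 lies below 0 on both axes in all 5 longissimus pairs, while points in the upper left and lower right, such as Myh8 and Myh4 of gluteus horses 2 and 3, have opposite signs.

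Myh8, the perinatal heavy chain, had both signs in both muscles. The mean of its probes was -0.48, 0.16, 0.22, 0.82 and -0.14 in gluteus horses 1 to 5, highest in horse 4 and lowest in horse 1. In longissimus it was -1.26, 0.43, 0.20, -0.52 and 0.09, lowest in horse 1, and the value of horse 4 came from probe M12289_34 alone. The means were 0.12 ± 0.24 in gluteus (SE, n = 5, adjusted p = 1) and -0.21 ± 0.24 in longissimus (SE, n = 5, adjusted p = 0.854). Each rested on 1 horse, as the gluteus mean was -0.06 without horse 4 and the longissimus mean 0.05 without horse 1. Gluteus minus longissimus was 0.33 ± 0.33 (SE, 95% interval -0.40 to 1.06, adjusted p = 0.9997), with 0.08 without horse 4 and -0.08 with the opposed pairs turned.

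The 2 Myh8 probes differed more in gluteus than in longissimus, where horse 1 was lowest and horse 2 highest on both. In gluteus probe M12289_34 read -0.92, 0.43, 0.40, 1.19 and -0.25, whereas probe NM_177369_2199 read -0.05, -0.10, 0.04, 0.45 and -0.02. Horse 4 was the highest on both, and the second probe was close to 0 in the other 4 horses. In longissimus M12289_34 read -1.18, 0.55, 0.34, -0.52 and 0.21, with the same sign on both dyes in 5 of 5 pairs. NM_177369_2199 read -1.35, 0.32, 0.05 and -0.02 in horses 1, 2, 3 and 5. However, its 2 arrays had opposite signs in 4 of 4 pairs, at -2.71 in Cy3 and 0.02 in Cy5 in horse 1.

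In gluteus horse 4, where Myh8 was highest, markers of several but not all other cell types were also high. Over all features that sample was the widest in gluteus, with an SD of 0.505 against 0.246 to 0.422 in the others. Of its features 0.345% lay at or above 2, against 0% to 0.0652% in the others. The 5 tested of 9 fibroblast markers had a median log2 ratio of 2.44 there, against -0.54 to 0.24 in the other 4 gluteus samples. The 3 tested of 8 nerve and Schwann markers had a median of 0.37 there (-0.12 to 0.01 in the others), and the 5 tested of 14 macrophage and leukocyte markers one of 0.31 (-0.20 to 0.01 in the others). The 5 tested of 9 endothelial markers had a median of 0.25 (0.01 to 0.13 in the others). The 13 tested of 18 markers of satellite cells and regenerating muscle had a median of 0.13 in that sample, with -0.10 to 0.05 in the others. The 4 tested of 8 smooth muscle markers were not high there, with a median of -0.13 (-0.17 to 0.10 in the others). Nor were the 3 tested of 7 adipocyte markers, with a median of 0.02 (-0.07 to 0.21 in the others). Erythrocyte markers had no value there. Each median uses the tested markers with a value in that sample, which can be fewer than the count given. In bulk muscle, more or fewer cells of a type and more or less RNA per cell cannot be told apart. The part of these cells in the Myh8 ratio was not tested.

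Myh3, the embryonic heavy chain, had few values. It was 0.32, 0.12 and -0.01 in gluteus horses 1 to 3 and 0.44, -0.25 and -0.02 in longissimus horses 1, 2 and 5. With features of at least 3 horses admitted, the means were 0.14 ± 0.15 in gluteus (SE, n = 3, adjusted p = 1) and 0.06 ± 0.15 in longissimus (SE, n = 3, adjusted p = 0.962). The longissimus mean was 0.09 on dense arrays, -0.02 on sparse ones (horse 5 alone), -0.14 without horse 1 and -0.18 with the opposed pairs turned. Both developmental heavy chains thus had horses on either side of the control pool in longissimus.

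Fast and slow isoforms were set against each other within each horse, as the mean log2 ratio of the fast members with a value minus that of the slow members. In gluteus this difference was 0.11, -0.01, -0.01 and -0.75 in horses 1, 2, 3 and 5, with a mean of -0.17 ± 0.40 (SD, n = 4). Without horse 5, whose fast side is Myh4 alone, that mean was 0.03, as on dense arrays, and with single-array values allowed it was 0.04. In longissimus it was 0.35, 0.55, -0.44, 1.37 and -0.06 in horses 1 to 5, with a mean of 0.36 ± 0.68 (SD, n = 5). That mean was 0.10 without horse 4, 0.55 without horse 3 and 0.04 with the opposed pairs turned. Neither mean exceeded its spread. The fast side rested on 3, 2, 3 and 1 members in gluteus and on 3, 3, 1, 1 and 1 in longissimus, so horses were not compared over the same genes.

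The essential light chains allow the same contrast over 1 fast and 1 slow gene, a comparison chosen after these values were seen. Myl1 minus Myl3 was 0.39, 0.03 and -0.09 in gluteus horses 1 to 3, with a mean of 0.11 ± 0.25 (SD, n = 3). In longissimus it was 0.42, 0.48, -0.06, 0.67 and 0.31 in horses 1 to 5, above 0 in 4 of 5, with a mean of 0.36 ± 0.27 (SD, n = 5). Since Myl1 itself was near 0 in longissimus, the difference there mostly carried the values of Myl3. No test was run on it, and its size changed with the dye. In longissimus Myl1 and Myl3 averaged 0.36 and -0.28 on the Cy3 arrays, but -0.34 and -0.44 on the Cy5 arrays, where they lay close together. With the Cy3 array turned in the opposed pairs their means were -0.23 and -0.26.

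**Figure D3:**
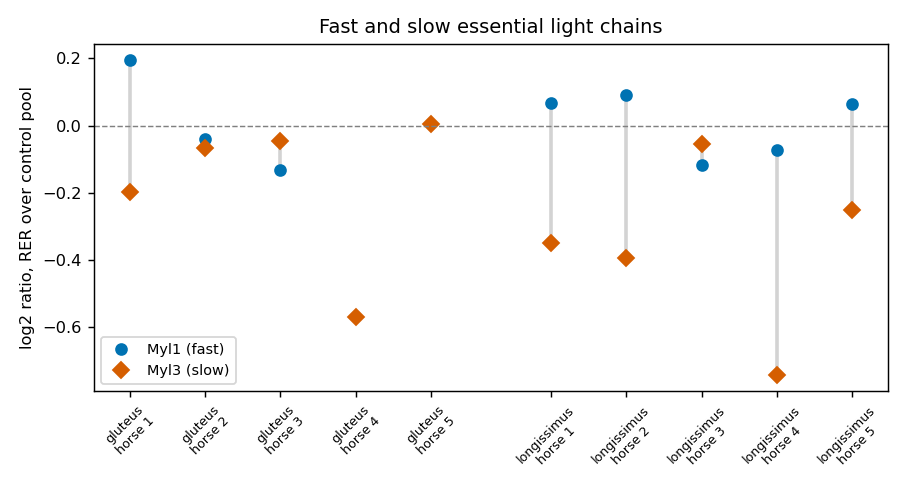
Log2 ratio of RER over the control pool (y axis) for the fast essential light chain Myl1 (circles) and the slow essential light chain Myl3 (diamonds) in each horse and muscle (x axis), joined by a grey line where both had a value. In longissimus Myl3 is below Myl1 in 4 of 5 horses, and in horse 3 both are close to 0.

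Within the slow set, Myh7 was set against each light chain in the same horse, with no test run. Myh7 minus Myl3 was above 0 in 4 of 5 gluteus samples, at -0.15 to 0.28 with a mean of 0.08 ± 0.15 (SD, n = 5). In longissimus it was above 0 in 5 of 5, at 0.23 to 1.03 with a mean of 0.57 ± 0.33 (SD, n = 5). The longissimus values rest on a Myh7 probe that moved with the dye, and on the Cy5 arrays of horse 1 Myh7 read -0.72 and Myl3 -0.46, the other order. Myh7 and Myl2 had the same sign in longissimus horses 1, 2, 3 and 5. Myh7 minus Myl2 in longissimus was 4.15 in horse 4 and between -0.29 and 0.54 in the other 4. Over the 10 horse and muscle values, Myl2 and Myl3 correlated at 0.789, and at 0.696 without longissimus horse 4. Myh7 correlated with Myl2 at -0.06 and with Myl3 at 0.305, which became 0.635 and 0.647 without longissimus horse 4. Values of a muscle share 1 pool and values of a horse share an animal, so these correlations are descriptions only.

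Longissimus horse 4, the sample with the lowest Myl2, was wide over the whole array. There 3.38% of its 8262 features lay at or below -2, against 0.0488% to 1.22% in the other 9 samples, and Myl2 sat at the 0.484th percentile. Its 2 arrays correlated at 0.849, the highest of the 10 pairs, so both showed the same wide values. Myl3 in that sample was at the 14.7th percentile and Myh7 at the 68.8th, so the slow isoforms did not share a rank. Why this sample is wide was not tested.

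The myosins work beside troponins, calcium pumps and Z-disc proteins that also come in fast and slow forms. Of 10 listed fast partners 8 were tested, and 6 of 8 had a mean below 0 in gluteus (median -0.10) and all 8 in longissimus (median -0.42). Of 12 listed slow partners 9 were tested, of which 4 were below 0 in gluteus (median 0.05) and 4 in longissimus (median 0.03). As above, 53.9% of all features were below 0 in gluteus and 51.1% in longissimus. None of these partners passed the adjusted threshold in either muscle. The median of the fast partners was -0.53, 0.11, -0.03, -2.001 and 0.04 in longissimus horses 1 to 5, so horses 1 and 4 were low and the other 3 close to 0. Sample medians use the genes with a value there, and the fast partner Myoz3 had none in horse 4. Without longissimus horse 4, a setting chosen after the data were seen, 7 of 8 fast partners were below 0 with a median of -0.14, and 53.7% of all features were.

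Among the fast partners Atp2a1, the calcium pump of the fast fibre reticulum, averaged -0.05 ± 0.09 in gluteus (SE, n = 5, adjusted p = 1). In longissimus it was 0.03, -0.08, -0.38, -0.50 and -0.27 in horses 1 to 5, with a mean of -0.24 ± 0.09 (SE, n = 5, adjusted p = 0.825). Tnnc2, the calcium-binding troponin C of fast fibres, was -5.45 in longissimus horse 4, -1.73 in horse 1 and between -0.03 and 0.34 in the other 3. Myoz1 and Myoz3, Z-disc proteins that bind calcineurin, had gluteus means of -0.37 ± 0.17 and 0.21 ± 0.08 (SE, n = 5 and 4, adjusted p = 1 for both). Their longissimus means were -0.13 ± 0.17 and -0.11 ± 0.08 (SE, n = 5 and 4).

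Among the slow partners Tnnc1, the troponin C of slow and cardiac muscle, was -4.01 in longissimus horse 4 and -1.15 in horse 1, the same samples in which Tnnc2 was low. Atp2a2, the calcium pump of slow and cardiac muscle, was instead highest in longissimus horse 4, at 1.86, with -0.20 to 0.55 in the other 4. Its mean was 0.46 ± 0.25 (SE, n = 5, adjusted p = 0.825). Casq2, the calcium store protein of slow and cardiac muscle, averaged 0.25 ± 0.13 in longissimus (SE, n = 5, adjusted p = 0.825), and Tnni1, the slow troponin I, averaged -0.04 ± 0.13 (SE, n = 5, adjusted p = 0.950). In longissimus horse 4 the slow partners had a median of 0.34, while Myl2 lay with the low values of both troponins C.

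**Figure D4:**
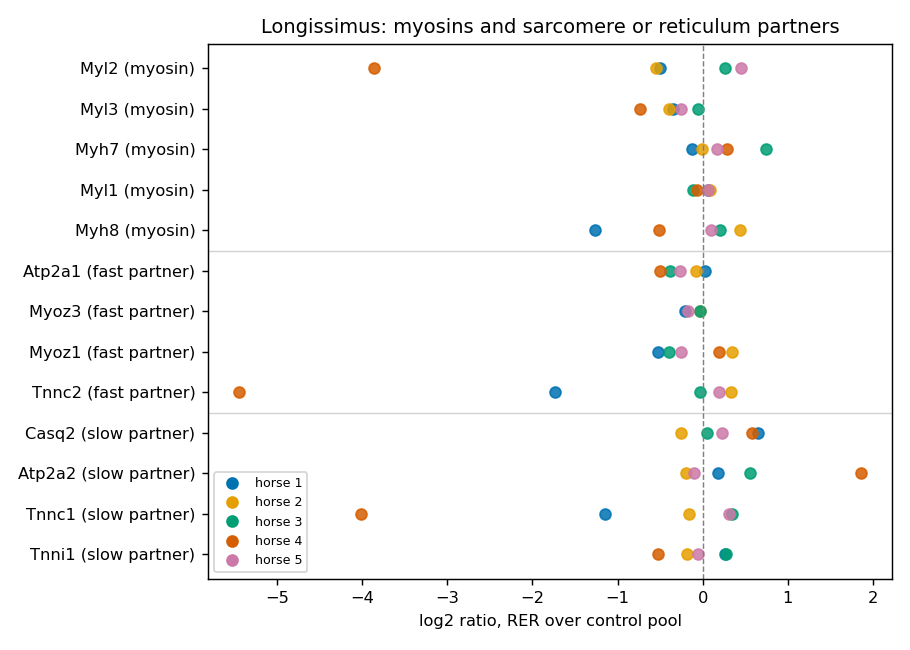
Log2 ratio of RER over the control pool in longissimus lumborum (x axis) for 5 myosins and for 4 fast and 4 slow partner genes (y axis), 1 point per horse. Horse 4 is far below the others for Myl2, Tnnc2 and Tnnc1, at -3.86, -5.45 and -4.01, and above them for Atp2a2, at 1.86.

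For each tested member, the gene with the most similar course over the 10 horse and muscle values was found by Pearson correlation among 3795 genes with all values. Myl3 was most like Plekhg5 (0.948, and 0.909 without longissimus horse 4), and Myl2 most like Ptov1 (0.988, and 0.845 without that sample). Myh7 was most like Prok1 (0.872) and Myh8 most like Ctdsp2 (0.955). A best match among so many genes over 10 values is a description of these samples.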

How the data were processed

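Per the labels' protocols, RNA was extracted with TRIZOL, 5 µg per sample were coupled to Cy3 or Cy5 through amino-allyl nucleotides, and dye-swapped pairs were averaged. The authors deposited a normalized table of log2 ratios for 24493 probes and 20 arrays. Its log2 scale was read from the values (floor -6.6439, highest 9.4043), and the normalization method and direction are not given in the sources used here. Array medians lay within 0.0444 of 0, and the shared dye pattern matched the labelled dye in 20 of 20 arrays. Gene symbols came from the platform annotation, which can be old: 13692 probes carry 1 symbol and 10801 none. The deposited direction was kept for all arrays.

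Each array was centred on its median. A horse's value in a muscle is the mean of its dye-swapped arrays, with both required, and probes of 1 symbol were averaged. A feature was tested if 4 or more of the 5 horses had a value in gluteus and in longissimus. The fit used limma 3.58.1 (R 4.3.3, and statmod 1.5.0 for the block) and had muscle as the factor, testing each muscle against 0 and their difference. A separate fit used the mean of both muscles per horse. Benjamini-Hochberg adjustment ran over all features at 0.05. The fit was tested on simulated data. According to the labels both muscles come from the same 5 horses, so horse numbers pair the samples. As a check, deviations from the muscle means correlated at 0.577, 0.303, -0.0989, 0.0209 and -0.00224 in horses 1 to 5.

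All members are named. Of the partner lists, the 4 genes with the smallest p in each are named. The members and lists were chosen with earlier results of these data known. Alternatives covered the orientation of opposed pairs, centring, single arrays, floor values, the filter, the replicate block, separate muscles, array density and leaving out each horse. No sequence is shown.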

Additional observations from a re-analysis of the deposited data

Results flagged for a closer look

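In 15 sets of horse values checked for a sample far from the rest, 3 held one. Chance gives about 1 in 20 for independent sets of normally spread values. These sets share horses and partly the same values, so no excess can be read from the count. In gluteus, Myh8 probe NM_177369_2199 of horse 4 at 0.4496 lay above the other 4 (gap 0.735 of the range), in the sample where fibroblast markers had a median of 2.44. In gluteus, the fast minus slow difference of horse 5 at -0.7543 lay below the other 3 (gap 0.862 of the range), and its fast side is Myh4 alone. In longissimus, Myl2 of horse 4 at -3.8643 lay apart from the other 4 horses, with a gap of 0.769 of the whole range, and both of its arrays were low.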

How the results depend on the processing

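Of 232 values of the tested members under alternatives, 219 kept their direction, 13 changed it and 0 passed the adjusted threshold, the lowest adjusted p being 0.355 (Myl3 in longissimus with the Cy3 array turned in opposed pairs). Changes of the horse filter, the replicate block and separate muscle fits repeated the main values of these members and could not change a direction. Myl3 kept its direction in every alternative run. Dense arrays alone gave -0.0664 for Myh7 in longissimus, 0.0313 for its difference between muscles and -0.0323 for Myh8 in gluteus. Turning the Cy3 array of opposed pairs gave -0.0202 for the Myh7 mean of both muscles, and for Myh8 0.116 in longissimus, -0.0778 for the difference and 0.0774 for the mean. Leaving out 1 horse gave -0.0471 to 0.133 for the Myh7 mean, -0.0924 to 0.0417 for Myl2 in gluteus, -0.0582 to 0.268 for Myh8 in gluteus, -0.373 to 0.0516 for Myh8 in longissimus and -0.133 to 0.160 for the Myh8 mean. Sparse arrays alone gave 1 called feature in gluteus, 2 in longissimus and a gluteus fast minus slow difference of -0.75 (horse 5 only). Leaving out the 4 opposed pairs, an alternative chosen after seeing the data, gave 1 called feature in each muscle. None of these is a member. The 2 settings test other horses and features, and the cause was otherwise not tested. The replicate block used a consensus correlation (0.200) for each muscle against 0, and horse as a factor for the difference between muscles. For that difference 421 features against 184 had an unadjusted p under 0.05 in limma and 0 were called. Myl3 then differed by 0.18 ± 0.09 (SE, adjusted p = 0.942 in limma), and the block changed no call. The differences of Myh7, Myl2 and Myh8 were then -0.31 ± 0.139, 0.80 ± 0.545 and 0.33 ± 0.258 (SE, adjusted p = 0.942 in limma for each). Signal over background is unknown here.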

Other observations

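Outside the family, other myosins and the genes known to set fibre type showed no call in limma at an adjusted p of 0.05. Of 5 tested other sarcomeric and cardiac myosin genes, 2 had means below 0 in each muscle (medians 0.04 in gluteus and 0.04 in longissimus). Of 5 tested smooth muscle and non-muscle myosins, 3 were below 0 in each muscle (medians -0.18 and -0.03). Proteins that bind or modify myosin were below 0 in 8 of 10 tested in gluteus and 5 of 10 in longissimus (medians -0.04 and -0.02). Of 14 tested regulators of fibre type, 8 were below 0 in gluteus and 10 in longissimus (medians -0.01 and -0.05). Of 13 tested genes of satellite cells and regenerating muscle, 7 were below 0 in gluteus and 4 in longissimus (medians -0.01 and 0.03).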
